A study of Homo sapiens with 4 samples.

Results

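The genes described here are 34 genes of cholesterol and fatty acid synthesis, chosen by name as enzymes of the sterol and fatty acid pathways, regulators of the SREBP transcription factors, and genes of sterol transport. All 34 matched a row among the 56809 gene rows of the count table and all 34 passed the filter on low counts, which left 17885 tested genes. The cells were NCI-H929, a human line grown from a multiple myeloma, engineered to express the nuclease Cas9, and their poly(A) RNA was sequenced. The knockout (KO) group of 2 libraries came from cells transduced with a doxycycline-inducible BCL7A KO construct, and the control group of 2 libraries from cells given a control construct, which the sample titles call wild type. All cells went through puromycin selection for 3 days and then 24 h of doxycycline at 0.5 ug/ml. BCL7A encodes a subunit of the BAF (SWI/SNF) chromatin remodelling complexes. Whether the libraries of 1 group stem from separate cultures is not in the labels. The p-values therefore rest on the spread between these libraries alone, and that spread may be technical.

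Cells make cholesterol from acetyl-CoA through mevalonate, the prenyl diphosphates, squalene and lanosterol, and they make fatty acids from the same acetyl-CoA through malonyl-CoA. Both pathways are under the SREBP factors, which SCAP escorts from the endoplasmic reticulum to the Golgi for cleavage when sterols are low, and which INSIG proteins hold back when sterols are high. SREBP-2 (gene SREBF2) acts mainly on sterol genes and SREBP-1 (gene SREBF1) mainly on fatty acid genes. Oxysterols act through the LXR receptors, whose known targets include ABCA1 and SREBF1. Plasma cells and the myeloma cells derived from them need membrane lipid for a large endoplasmic reticulum.

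Total gene counts were 17567202 and 20153596 for the control and 38671744 and 40799624 for the KO libraries, so depth went with the group. The targeted gene BCL7A (chromosome 12, 122019422 to 122062044) was at 1.31 and 1.19 CPM (counts scaled to the library's effective total) in the KO and at 42.9 and 45.7 CPM in the control libraries. All 10 plasma cell markers were detected in every library, with a summed level of 12049 to 12061 CPM in the KO, against 6782 to 6843 CPM in the control libraries. Of 11 mature B cell markers, 8 were lower and 1 was higher in the KO libraries, with sums of 43.7 to 46.1 against 562 to 573 CPM, and CD22 was at 0 in the KO group. The sums for T cell markers were 14.2 to 14.3 against 28.5 to 29.6 CPM (CD3D at 0 in all libraries) and for myeloid markers 57.1 to 59.0 against 27.3 to 31.0 CPM (MPO at 0 in all libraries). The myeloid sum is nearly all CD68 (57.8 and 56.3 against 26.0 and 29.4 CPM), and ITGAM was lower in the KO libraries (-3.97, adjusted p = 7.35e-07). Epithelial markers summed to 11.99 to 12.6 against 66.1 to 70.9 CPM, with KRT19 at 0 in all libraries and EPCAM at 0 only in the KO group, and erythroid markers to 0.189 to 0.513 against 4.29 to 4.42 CPM. The part of these marker differences in the results below was not tested. In bulk samples, fewer cells of a type and less RNA per cell cannot be told apart.

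Promoter windows are shown first for 5 members whose levels separated the groups and whose products stand at different points of sterol control: both SREBP genes, INSIG1, FDPS and ABCA1. Each is the stretch of 250 bases before the gene's start in RefSeq (GRCh38.p14), written 5′ to 3′ on the gene's strand. Capitals mark CCAAT boxes, the site of NF-Y, and the sterol regulatory element core CACNCCAC, a form of the SREBP site, each on either strand.
SREBF2, chromosome 22, 41832855 to 41833104, plus strand: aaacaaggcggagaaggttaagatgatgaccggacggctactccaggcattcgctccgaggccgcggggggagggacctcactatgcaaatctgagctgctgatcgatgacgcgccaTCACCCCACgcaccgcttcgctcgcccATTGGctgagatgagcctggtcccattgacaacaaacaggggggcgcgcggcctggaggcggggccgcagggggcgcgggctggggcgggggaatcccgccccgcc
SREBF1, chromosome 17, 17836987 to 17837236, minus strand: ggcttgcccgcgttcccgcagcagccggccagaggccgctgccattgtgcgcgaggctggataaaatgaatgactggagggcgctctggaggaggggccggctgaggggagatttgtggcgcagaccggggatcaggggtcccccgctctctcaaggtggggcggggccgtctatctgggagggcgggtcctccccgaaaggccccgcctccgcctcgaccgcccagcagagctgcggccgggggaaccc
INSIG1, chromosome 7, 155297628 to 155297877, plus strand: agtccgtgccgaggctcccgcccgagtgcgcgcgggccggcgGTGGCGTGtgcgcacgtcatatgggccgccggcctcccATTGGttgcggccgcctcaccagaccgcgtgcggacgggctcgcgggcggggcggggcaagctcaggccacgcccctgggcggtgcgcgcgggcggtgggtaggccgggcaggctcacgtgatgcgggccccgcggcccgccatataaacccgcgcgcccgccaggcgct
FDPS, chromosome 1, 155308616 to 155308865, plus strand: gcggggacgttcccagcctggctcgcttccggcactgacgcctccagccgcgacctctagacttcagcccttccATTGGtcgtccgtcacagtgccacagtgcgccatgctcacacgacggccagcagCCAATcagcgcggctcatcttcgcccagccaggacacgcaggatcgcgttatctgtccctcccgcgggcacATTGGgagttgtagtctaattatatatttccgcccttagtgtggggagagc
ABCA1, chromosome 9, 104928156 to 104928405, minus strand: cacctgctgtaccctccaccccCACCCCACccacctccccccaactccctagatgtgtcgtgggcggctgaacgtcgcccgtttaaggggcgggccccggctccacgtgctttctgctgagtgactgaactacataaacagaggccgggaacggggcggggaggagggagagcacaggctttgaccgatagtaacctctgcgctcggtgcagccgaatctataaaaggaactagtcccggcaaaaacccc

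Of the 34 members, 30 had a window in the table, some with several starts. The longer element TCACNCCAC, which contains the core, was present only in SREBF2 among these 30 genes (3.33%, against 1.09% of 27305 genes with a window). Its match there, TCACCCCAC, began 133 bases before the start. The core was present in 7 of the 30 genes (23.3%, against 5.89% of all genes), namely ABCA1, ACACA, IDI1, INSIG1, SC5D, SCD and SREBF2. CCAAT boxes were present in 20 (66.7%, against 37.0% of all genes), with 5 each in IDI1, MVK and NSDHL over all their windows and 3 in FDPS. SREBF1, ABCA1 and FADS1 were among the 10 genes with none. GC boxes (GGGCGG), which are not marked above, were present in 28 genes (93.3%, against 46.2% of all genes). E-boxes (CACGTG) were present in 4 (13.3%, against 7.73%). A higher share than over all genes was thus not particular to the core and the CCAAT box. Counted by window, the core was in 16.7% of the members' 42 windows, against 4.87% of all 35116 windows. Members with the core went both ways in the comparison below, as did members with CCAAT boxes. A match is a description of letters, and its absence says nothing of a factor.

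The comparison of KO with control libraries asks how the transcripts of the KO and control cells differ. The 34 genes did not move together, and most roles held genes of both directions. The members of fatty acid synthesis up to monounsaturated acids were higher in the KO libraries, with FASN 2.51-fold and ACLY 1.73-fold higher. The desaturases FADS1 and FADS2 of polyunsaturated acids were 2.83-fold and 1.80-fold lower. Outside the 34 genes, SCD5, the other stearoyl-CoA desaturase, was lower (3.87 CPM in the KO against 38.4 CPM in the control libraries). SREBF1 was 2.27-fold higher, and SREBF2 and INSIG1 were 1.44-fold and 2.57-fold lower. All 3 enzymes from farnesyl diphosphate to lanosterol were lower, and the cholesterol exporter ABCA1 was 4.11-fold higher. Here a gene that rose had passed the test with a higher level in the KO group, and a gene that fell with a lower one.

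By edgeR's quasi-likelihood test, 17 members were higher at an adjusted p below 0.05, where 36.4% of all tested genes were, and 14 were lower, where 39.8% of all tested genes were. Of the 9537 tested genes whose mean reached 10 CPM, as it did for 33 members, the shares were 54.2% and 31.7%. Thus 31 of 34 members passed, against 76.2% of all tested genes and 85.8% of those with at least 10 CPM, a high background for any list. At least 2-fold, 6 members were higher (17.6% of them, against 9.47% of tested genes and 9.42% of those with at least 10 CPM). By the same measure 3 were lower (8.82%, against 23.5% and 8.86%). The members' median log2 fold change was 0.12, beside -0.06 over all tested genes and 0.19 over those with at least 10 CPM. In 32 of the 34 members the groups did not overlap, as in 87.4% of tested genes and 92.4% of those with at least 10 CPM. The libraries of a group lay close together, with a median absolute log2 ratio of 0.04 between the KO libraries and 0.05 between the control libraries over the members, and a largest one of 0.16 and 0.29. Upper-quartile scaling lowers the median of all genes by 0.13 on the log2 scale (-0.13). With that scaling 13 members were higher and 15 lower, which turns the balance, beside 5510 and 8110 of all tested genes. Some members moved further in mean TPM (counts per transcript length, scaled to the same total in each library). SCAP (41.4 in the KO against 41.6 in the control libraries), MVD (24.9 against 25.2) and INSIG2 (24.6 against 26.4) were then lower in the KO. So were LBR (105 against 118) and MSMO1 (35.5 against 39.8). The test had called all of these higher, so increases of up to about 0.28 have no settled direction.

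**Figure D1:**
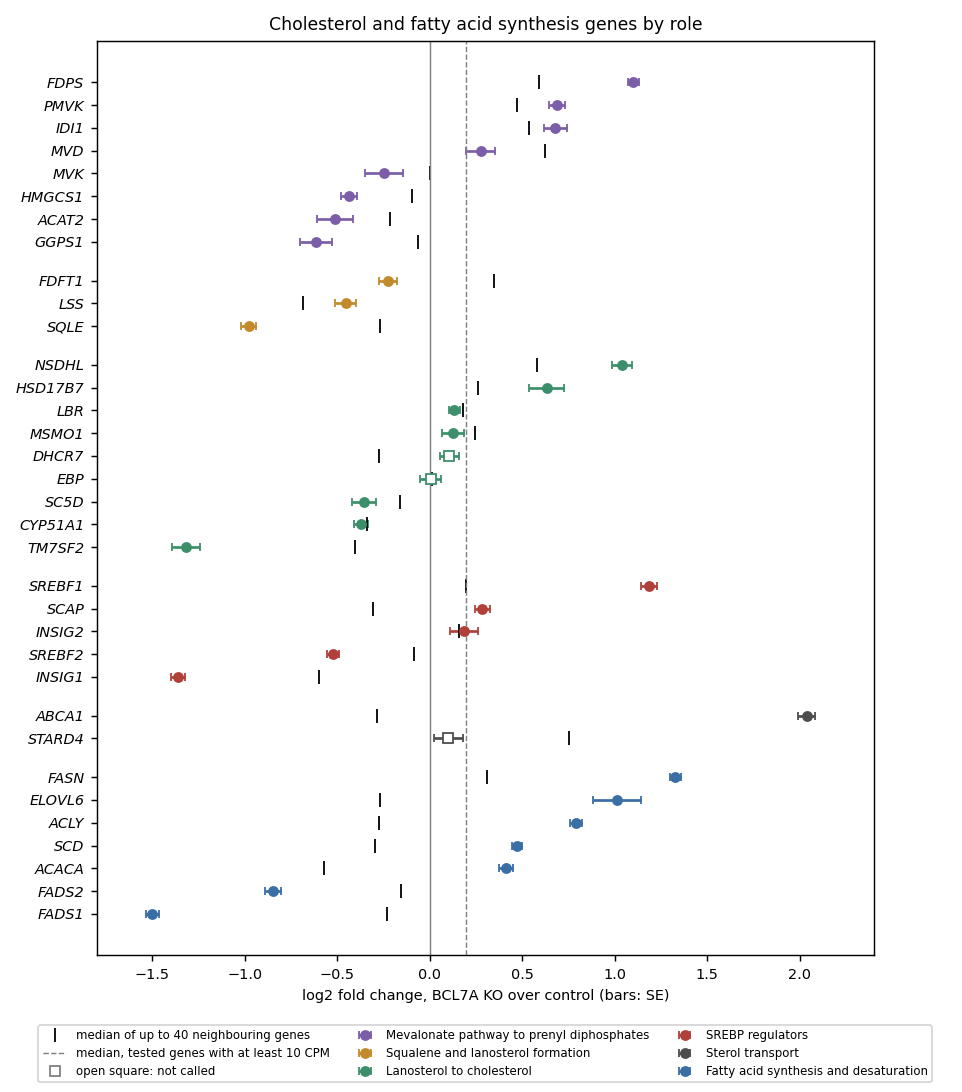
Log2 fold change (KO over control) of the 34 genes, grouped by role, with bars for the SE. Filled circles passed the test and open squares did not. Black ticks are the median log2 fold change of the nearest tested genes, 20 on each side (fewer at a chromosome's end, so 29 in all for LSS and 25 for IDI1), and the dashed line is the median of tested genes with at least 10 CPM (0.19). ABCA1 lies furthest to the right (2.04) and FADS1 furthest to the left (-1.50).

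The regulators split within their own circuit. SREBF1 (chromosome 17, 17810399 to 17837002) was at 111 and 113 CPM in the KO and at 47.5 and 50.8 CPM in the control libraries. Both KO libraries were above both control libraries (1.18 as a log2 fold change, SE 0.04, adjusted p = 4.84e-20). SREBF2 (chromosome 22, 41833079 to 41907308) was at 166 and 172 CPM in the KO and at 239 and 247 CPM in the control libraries, again without overlap but in the other direction (-0.52, SE 0.03, adjusted p = 4.86e-15). The count of SREBF1 over that of SREBF2 within a library, which does not depend on scaling, was 0.671 and 0.655 in the KO and 0.199 and 0.206 in the control libraries, a 3.27-fold higher ratio in the KO. SREBF1 overlaps RAI1 on the opposite strand, and the count table may not separate their reads fully.

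INSIG1, the INSIG gene that is itself a target of SREBPs, fell furthest of the regulators. INSIG1 (chromosome 7, 155297776 to 155310235) was at 58.4 and 60.0 CPM in the KO and at 149 and 156 CPM in the control libraries, with no overlap (-1.36, SE 0.04, adjusted p = 1.26e-22). INSIG2, which is known to respond less to SREBPs, was at 30.4 and 29.4 CPM against 23.5 and 28.8 CPM. Its groups lay next to each other (0.18, SE 0.07, adjusted p = 0.0292). The call was lost in 8 of the 14 alternatives of processing described below, among them without the first KO library or the first control library. SCAP was at 86.2 and 84.8 CPM against 70.0 and 70.3 CPM, a small increase (0.28, SE 0.04, adjusted p = 3.18e-07). In CPM, all of INSIG1, SREBF1, SREBF2 and SCAP thus differed by more than the spread between the libraries of a group. SCAP had the smallest fold change of these, and its direction depends on the scaling (41.4 against 41.6 TPM).

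Mevalonate pathway genes fell at its entry and rose in its later steps, with exceptions. ACAT2, the cytosolic thiolase that joins acetyl-CoA units, was at 12.9 and 12.1 CPM in the KO and at 16.0 and 19.5 CPM in the control libraries (-0.51, SE 0.10, adjusted p = 3.85e-05). HMGCS1, the HMG-CoA synthase of the cytosol, was at 76.3 and 70.3 CPM against 99.8 and 98.7 CPM (-0.44, SE 0.04, adjusted p = 2.65e-10). MVK, mevalonate kinase, was at 12.3 and 11.3 CPM against 13.1 and 14.9 CPM, a call close to the threshold (-0.25, SE 0.10, adjusted p = 0.0291). These 3 genes were thus lower in the KO libraries, but the call on MVK was lost without either KO library (adjusted p = 0.0539 and 0.268) and without the second control library (adjusted p = 0.204). ACAT2 overlaps TCP1, and MVK overlaps MMAB, each on the opposite strand.

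The next enzymes went the other way. PMVK, phosphomevalonate kinase, was at 91.4 and 92.8 CPM in the KO and at 59.0 and 55.6 CPM in the control libraries (0.69, SE 0.04, adjusted p = 1.61e-14). IDI1, the isopentenyl diphosphate isomerase, was at 38.3 and 41.8 CPM against 24.9 and 25.2 CPM (0.68, SE 0.06, adjusted p = 1.11e-10). MVD, the decarboxylase between them, was at 21.8 and 20.8 CPM against 17.7 and 17.5 CPM, a smaller increase (0.28, SE 0.08, adjusted p = 0.00211). All 3 had KO libraries above control libraries in CPM, but MVD did not in mean TPM (24.9 against 25.2). FDPS, farnesyl diphosphate synthase (chromosome 1, 155308748 to 155320666), rose most, at 262 and 256 CPM against 121 and 121 CPM (1.10, SE 0.03, adjusted p = 2.23e-22). GGPS1, which extends farnesyl to geranylgeranyl diphosphate for protein prenylation, fell instead, from 19.6 and 19.4 CPM in the control to 12.5 and 12.9 CPM in the KO libraries (-0.62, SE 0.09, adjusted p = 3.73e-07). The pair of prenyl synthases therefore moved apart, with 20.9 and 19.9 counts of FDPS per count of GGPS1 in the KO and 6.15 and 6.25 in the control libraries. Reads of GGPS1 may be shared with TBCE on the same strand.

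From farnesyl diphosphate to lanosterol, every enzyme was lower in the KO libraries. FDFT1, squalene synthase, was at 48.5 and 49.1 CPM in the KO and at 57.8 and 56.5 CPM in the control libraries, a small difference (-0.23, SE 0.05, adjusted p = 9.60e-05). SQLE, the squalene epoxidase, a rate-limiting point of the pathway (chromosome 8, 124998497 to 125022283), was at 49.8 and 48.99 CPM against 96.5 and 98.1 CPM (-0.98, SE 0.04, adjusted p = 2.38e-18). LSS, lanosterol synthase, was at 32.4 and 32.9 CPM against 42.3 and 47.1 CPM (-0.46, SE 0.06, adjusted p = 5.53e-08). SQLE thus fell most of the 3. Set against the enzyme just upstream of this branch, FDPS gave 5.26 and 5.23 counts per count of SQLE in the KO and 1.25 and 1.23 in the control libraries.

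The 9 enzymes that turn lanosterol into cholesterol were mixed, with 4 higher, 3 lower and 2 not past the test. NSDHL, a decarboxylating sterol dehydrogenase (chromosome X, 152830967 to 152869729), was at 56.2 and 55.8 CPM in the KO and at 26.5 and 27.9 CPM in the control libraries (1.04, SE 0.05, adjusted p = 4.22e-16). HSD17B7, the ketoreductase that acts after NSDHL, was at 19.8 and 18.03 CPM against 11.1 and 13.2 CPM (0.63, SE 0.10, adjusted p = 1.22e-06). Both partners in C4 demethylation therefore rose. MSMO1, the oxidase of the same demethylation, was at 36.9 and 38.7 CPM against 33.7 and 35.6 CPM, at the edge of the threshold (0.13, SE 0.06, adjusted p = 0.0499). That call was lost in 10 of the 14 alternatives of processing described below, and the direction turned in 1. Among the losses were those without either KO library or the first control library, and the call was kept without the second control library.

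The C14 reductases, LBR and TM7SF2, which do the same sterol reduction, differed from each other. TM7SF2 (chromosome 11, 65111845 to 65116384) was at 12.2 and 12.7 CPM in the KO and at 31.5 and 30.6 CPM in the control libraries (-1.32, SE 0.08, adjusted p = 2.36e-15). LBR, which is also the lamin B receptor of the nuclear envelope, was at 186 and 191 CPM against 169 and 175 CPM (0.13, SE 0.03, adjusted p = 4.29e-04), within the distance that scaling can move. Counts of LBR per count of TM7SF2 were 15.3 and 15.1 in the KO and 5.35 and 5.71 in the control libraries. TM7SF2 overlaps VPS51 on the same strand, so its counts are uncertain. CYP51A1, the C14 demethylase, fell (89.4 and 91.8 against 117 and 117 CPM; -0.37, SE 0.04, adjusted p = 2.55e-10), as did SC5D, a sterol desaturase (27.1 and 30.3 against 36.5 and 37.0 CPM; -0.36, SE 0.06, adjusted p = 1.22e-05). EBP, the sterol isomerase, was at 35.4 and 33.99 CPM against 34.4 and 34.7 CPM, with overlapping groups (0.0047, SE 0.06, adjusted p = 0.943). DHCR7, the reductase that makes cholesterol from its dehydro form, was at 49.3 and 51.9 CPM against 45.3 and 48.6 CPM (0.11, SE 0.05, adjusted p = 0.0657). It passed the test without the first KO library (adjusted p = 0.0473) or the second control library (adjusted p = 0.0268).

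ABCA1, which moves cholesterol out of the cell to lipid-poor apolipoprotein, rose most of the 34 genes. ABCA1 (chromosome 9, 104781002 to 104928237) was at 121 and 126 CPM in the KO and at 30.9 and 29.2 CPM in the control libraries, a separation far beyond the spread in either group (2.04, SE 0.05, adjusted p = 1.69e-24). Its place among tested genes was the 98.5th percentile of the log2 fold change. STARD4, a cytosolic sterol carrier, was at 21.0 and 21.0 CPM against 17.9 and 21.1 CPM, with overlapping groups (0.10, SE 0.08, adjusted p = 0.254). It passed without the second control library (adjusted p = 0.0332). Counts of ABCA1 per count of INSIG1, which also carry the genes' unequal transcript lengths, were 2.07 and 2.09 in the KO and 0.208 and 0.187 in the control libraries, a 10.5-fold higher ratio in the KO. Per length, ABCA1 stayed below INSIG1 in both groups (25.0 against 41.9 TPM in the KO and 7.46 against 132 TPM in the control libraries).

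**Figure D2:**
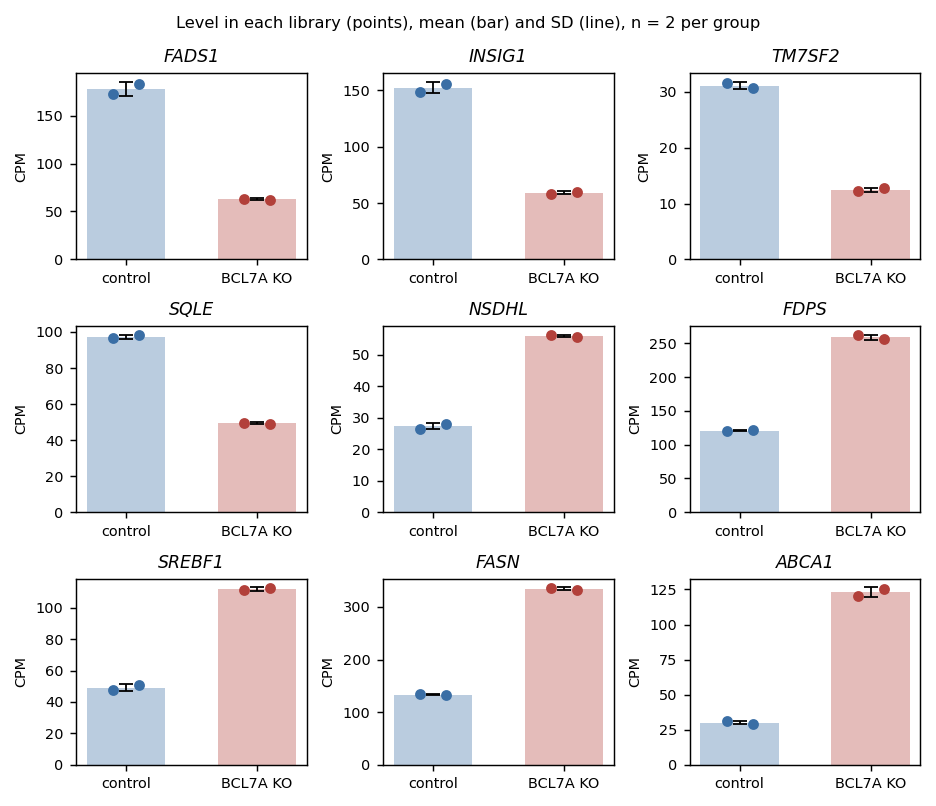
Level (CPM, vertical axes from 0) of 9 members in each library. Points are libraries, bars the mean of 2 libraries and lines the SD. FADS1, INSIG1, TM7SF2 and SQLE are lower in both KO libraries than in both control libraries, and NSDHL, FDPS, SREBF1, FASN and ABCA1 are higher in both.

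Of the 7 members of fatty acid synthesis and desaturation, 5 rose and 2 fell. The 2 that fell, FADS1 and FADS2, lie beside each other, so they do not stand for polyunsaturated acid synthesis as a whole. ACLY, which makes cytosolic acetyl-CoA from citrate and so feeds both pathways, was at 322 and 321 CPM in the KO and at 193 and 179.7 CPM in the control libraries (0.79, SE 0.03, adjusted p = 1.09e-18). ACACA, the acetyl-CoA carboxylase that commits carbon to fatty acids, was at 105 and 104 CPM against 79.8 and 77.3 CPM (0.41, SE 0.04, adjusted p = 9.80e-11). FASN, the fatty acid synthase (chromosome 17, 82078333 to 82098332), was at 336 and 332 CPM against 134 and 132 CPM (1.33, SE 0.03, adjusted p = 1.23e-24). These 3 consecutive steps were thus all higher in both KO libraries. SCD, the desaturase that makes oleate, was at 363 and 369 CPM against 269 and 259 CPM (0.47, SE 0.03, adjusted p = 6.72e-15). ELOVL6, which elongates palmitate, was the least abundant member at 11.1 and 10.2 CPM against 5.33 and 5.23 CPM (1.01, SE 0.13, adjusted p = 5.17e-08).

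The polyunsaturated desaturases went down. FADS1, the delta-5 desaturase (chromosome 11, 61799625 to 61829318), was at 63.4 and 62.3 CPM in the KO and at 173 and 183 CPM in the control libraries, the strongest decrease of the 34 genes (-1.50, SE 0.04, adjusted p = 7.91e-24). FADS2, the delta-6 desaturase beside it (chromosome 11, 61792980 to 61867354), was at 44.9 and 45.0 CPM against 83.0 and 78.8 CPM (-0.85, SE 0.05, adjusted p = 5.11e-16). Both fell, FADS1 by more, with 0.707 and 0.722 counts of FADS2 per count of FADS1 in the KO and 0.481 and 0.431 in the control libraries. Their gene models overlap on opposite strands, and FADS2 also overlaps FEN1 on its own strand, so reads may be shared. FASN and FADS1 changed order: per length FASN was at 83.1 and FADS1 at 29.6 TPM in the KO, and at 40.6 and 102 TPM in the control libraries. In counts, FASN gave 5.30 and 5.33 per count of FADS1 in the KO and 0.778 and 0.723 in the control libraries.

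**Figure D3:**
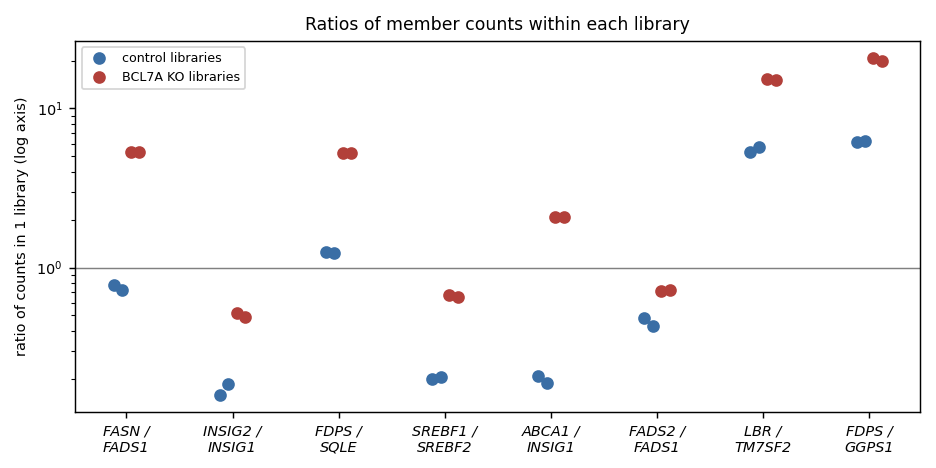
Ratio of the counts of one member to those of another within each library (log axis), for 8 pairs chosen after their values were seen. Blue points are the 2 control and red points the 2 KO libraries, and the grey line is a ratio of 1. In each pair the KO libraries lie above the control libraries. The counts carry transcript length, so the height of a pair is not a comparison of levels between its genes.

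Per unit length, the order of the members also differed between the groups. Levels here are TPM (counts per transcript length, scaled to the same total in each library), computed from counts over the longest GENCODE basic transcript of each gene, and the transcripts actually used were not measured. FDPS had the highest level in both groups, at 373 ± 4.54 TPM (SD, n = 2) in the KO and 213 ± 0.453 TPM (n = 2) in the control libraries. In the control libraries INSIG1 came second at 132 ± 3.65 TPM (n = 2), and its rank was 12 in the KO libraries, at 41.9 ± 0.921 TPM (n = 2). FADS1 went from rank 8 (102 ± 3.56 TPM, n = 2) in the control to rank 20 (29.6 ± 0.304 TPM, n = 2) in the KO libraries. FASN moved the other way, from rank 18 (40.6 ± 0.676 TPM, n = 2) to rank 6 (83.1 ± 0.521 TPM, n = 2). ELOVL6 was lowest in both groups (3.52 ± 0.188 and 2.13 ± 0.0409 TPM, n = 2 each).

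Each member was also set beside its neighbours on the chromosome. The members lie on 17 chromosomes, and the neighbours were the 20 nearest tested genes on each side, 40 in all except 29 for LSS and 25 for IDI1, which lie near a chromosome's end. The neighbours' median log2 fold change ranged from -0.69 (around LSS) to 0.75 (around STARD4). Of the 34 members, 16 were above and 18 below that median, and 7 were within 0.2 of it. In 28 members the difference to the neighbours had the sign of the member's own log2 fold change. That difference contains the member's own value, so a large value fixes its sign. The count was not made for other genes, so no conclusion is drawn from it. ABCA1 stood 2.32 above its neighbours, ELOVL6 1.28, ACLY 1.07, FASN 1.02, SREBF1 0.99 and ACACA 0.99, all on the log2 scale. FADS1 stood below them (-1.27), as did TM7SF2 (-0.92), INSIG1 (-0.76), SQLE (-0.71) and FADS2 (-0.69). Some increases went with their surroundings: PMVK and IDI1 were only 0.22 and 0.14 above neighbours that had themselves medians of 0.47 and 0.54. FDPS stood 0.51 and NSDHL 0.46 above neighbours with medians of 0.59 and 0.58. LSS, although lower in the KO libraries, was 0.23 above these neighbours, but below those with at least 10 CPM (-0.043).

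The set of neighbours mattered for many genes. ACACA stood 0.99 above its 40 neighbours, 0.51 above the nearest 20 and 0.46 above those with at least 10 CPM. For SCD these values were 0.77, 0.24 and 0.17, and for FDFT1 they were -0.58, -0.011 and -0.76. Among the 20 nearest, the median around INSIG1 was -1.38, as low as INSIG1 itself, and among the nearest with at least 10 CPM it was -0.37. Around HMGCS1 the medians were -0.10 (40 genes), -0.75 (20 genes) and 0.54 (40 genes with at least 10 CPM). With the neighbours of at least 10 CPM, a set chosen after the data were seen, 14 members were above and 20 below, with fewer than 40 neighbours for 6 of them near a chromosome's end. HSD17B7 then lay below its neighbours (-0.14) and SREBF1 0.54 above, while ABCA1 (2.09), FASN (0.81), FADS1 (-1.50) and SQLE (-1.23) kept their side. What part of a member's difference goes with its chromosome region was not tested.

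Of the other lipid genes, in 7 lists of 92 genes with 88 tested, 50 were higher (56.8%), 25 were lower (28.4%) and 13 did not pass, with a median log2 fold change of 0.36. These shares are near those of all tested genes with at least 10 CPM (54.2% and 31.7%). Among 12 further genes of SREBP processing and sterol sensing, 5 rose (41.7%) and 7 fell (58.3%), none of them by 2-fold (median -0.19). Up went MBTPS1, the Site-1 protease that cleaves SREBPs (275 ± 4.95 against 190 ± 8.67 CPM, n = 2 each; 0.54, SE 0.03) and RNF145 (0.68, SE 0.04). PGRMC1 (-0.79, SE 0.06) and ERLIN1 (-0.56, SE 0.07) fell. The machinery around SREBP cleavage thus had members on both sides, as the 5 regulators among the 34 genes did.

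Isoprenoid-using enzymes, downstream of FDPS and GGPS1, rose in 9 of 13 cases (69.2%) and fell in 2 (15.4%), with a median of 0.63. Of all tested genes with at least 10 CPM, 54.2% rose and 31.7% fell. ZMPSTE24, the protease that trims prenylated proteins, was at 161 ± 2.45 CPM in the KO, against 67.2 ± 1.82 CPM in the control libraries (n = 2 each; 1.26, SE 0.04). RABGGTB, a subunit of the Rab prenyltransferase (0.67, SE 0.04), and NUS1, of dolichol synthesis (0.63, SE 0.03), also rose. RCE1, another protease of prenylated proteins (-0.42, SE 0.10), and the farnesyltransferase subunit FNTB (-0.30, SE 0.14, adjusted p = 0.0459) fell, the latter losing its call in 8 of the 14 alternatives, among them without either KO library or the first control library. Fatty acid oxidation genes rose in 10 of 12 cases (83.3%, beside the same 54.2%), and 0 were lower by the test (median 0.76). HADHA was at -0.011 (adjusted p = 0.758). ACADVL, the very-long-chain acyl-CoA dehydrogenase, was at 396 ± 3.06 against 144 ± 1.94 CPM (n = 2 each; 1.46, SE 0.03). The carnitine carrier SLC25A20 (1.33, SE 0.04) and the electron carrier subunit ETFA (1.23, SE 0.04) followed. Most of the listed genes for making saturated fatty acids and for burning them were higher in the same libraries, as were 54.2% of tested genes with at least 10 CPM.

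In cholesterol uptake, storage and traffic, 9 of 15 genes rose (60%) and 4 fell (26.7%), with a median of 0.34. These shares are near those of tested genes with at least 10 CPM (54.2% and 31.7%). LRP8, a lipoprotein receptor (1.35, SE 0.06), SCARB1, the HDL receptor (1.12, SE 0.04), and LIPA, the lysosomal acid lipase (0.93, SE 0.04), rose. NPC2, which hands cholesterol out of the lysosome, was at 29.8 ± 0.326 CPM in the KO, against 159 ± 2.19 CPM in the control libraries (n = 2 each; -2.41, SE 0.04), and its partner NPC1 also fell (-0.64, SE 0.05), as did GRAMD1B (-0.46, SE 0.15), a call lost without the first control library (adjusted p = 0.0755). Of 8 LXR and oxysterol genes only 5 were tested, with 2 higher (40%) and 1 lower (20%). ABCG1, an exporter related to ABCA1, was at 24.4 ± 0.386 against 9.30 ± 1.04 CPM (n = 2 each; 1.40, SE 0.09), and LPCAT3 rose as well (0.51, SE 0.10), while the receptor gene NR1H2 fell (-0.49, SE 0.07). ABCA1, ABCG1, LPCAT3 and SREBF1, all known LXR targets, were higher in the KO libraries, as were 54.2% of tested genes with at least 10 CPM. They were gathered from different lists after their values were seen, without a rule for LXR targets, and LXR activity was not tested. In the same libraries NR1H2 was lower and NR1H3 was not past the test (-0.24, SE 0.24, adjusted p = 0.360).

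Fatty acid supply, elongation and activation genes rose in 13 of 21 tested cases (61.9%) and fell in 6 (28.6%), with a median of 0.64. These shares too are near the 54.2% and 31.7% of tested genes with at least 10 CPM. FABP5, a fatty acid carrier, was at 98.9 ± 6.30 against 27.7 ± 0.262 CPM (n = 2 each; 1.84, SE 0.05), and ACSL5 (1.07, SE 0.05) and TECR (0.93, SE 0.04) rose too. SCD5, the other stearoyl-CoA desaturase, was at 3.87 ± 0.0803 against 38.4 ± 4.15 CPM (n = 2 each; -3.31, SE 0.10), opposite in direction to SCD. ACSS2, which makes acetyl-CoA from acetate, fell (-1.49, SE 0.11) where ACLY rose, and FADS3 (-0.90, SE 0.09) fell with its neighbours FADS1 and FADS2. Glycerolipid synthesis genes leaned down, with 2 of 10 higher (20%) and 5 lower (50%), and a median of -0.29. CHKA, choline kinase (-1.49, SE 0.07), LPIN2 (-1.27, SE 0.08) and DGAT2 (-0.86, SE 0.06) fell, and GPAM (0.67, SE 0.06) and LPIN1 (0.53, SE 0.03) rose.

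**Figure D4:**
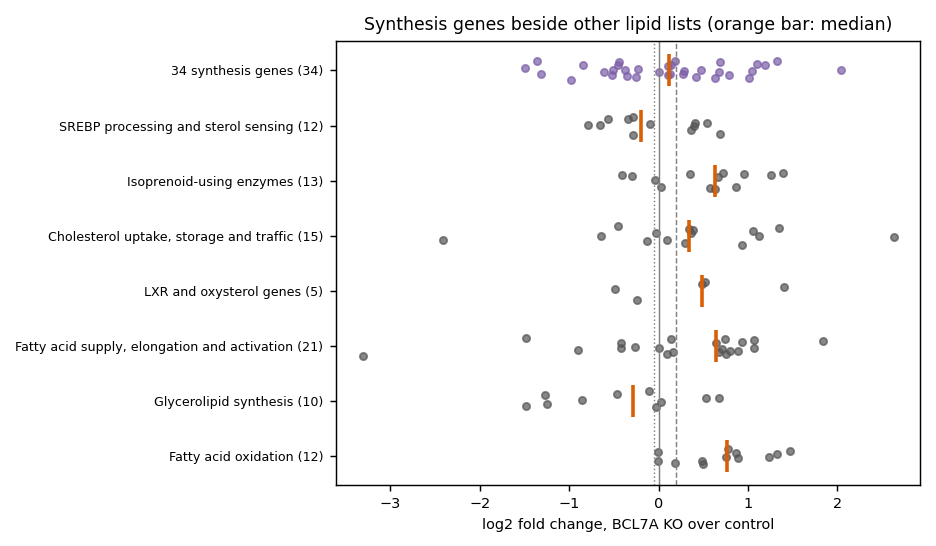
Log2 fold change (KO over control) of each tested gene in the 34 synthesis genes and in 7 other lipid lists, with the number of genes in brackets. Orange bars are list medians, and the vertical lines are 0 (solid), the median of all tested genes (dotted, -0.06) and that of tested genes with at least 10 CPM (dashed, 0.19). The synthesis genes spread to both sides, fatty acid oxidation lies at or above 0, and SCD5 is the point furthest to the left.

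Over 14 alternatives of scaling, filtering, testing and left-out libraries, 26 of the 34 members kept their direction and their side of the threshold. The other 8 were MVK, MVD, LBR, MSMO1, EBP, DHCR7, INSIG2 and STARD4, all of which had a log2 fold change between -0.25 and 0.28. None of the alternatives scaled to total counts alone. SCAP, among the 26, was lower in the KO by mean TPM (41.4 against 41.6 in the control libraries). ABCA1 ranged from 1.90 to 2.12, FASN from 1.19 to 1.41, FADS1 from -1.63 to -1.42 and INSIG1 from -1.50 to -1.28.

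**Figure D5:**
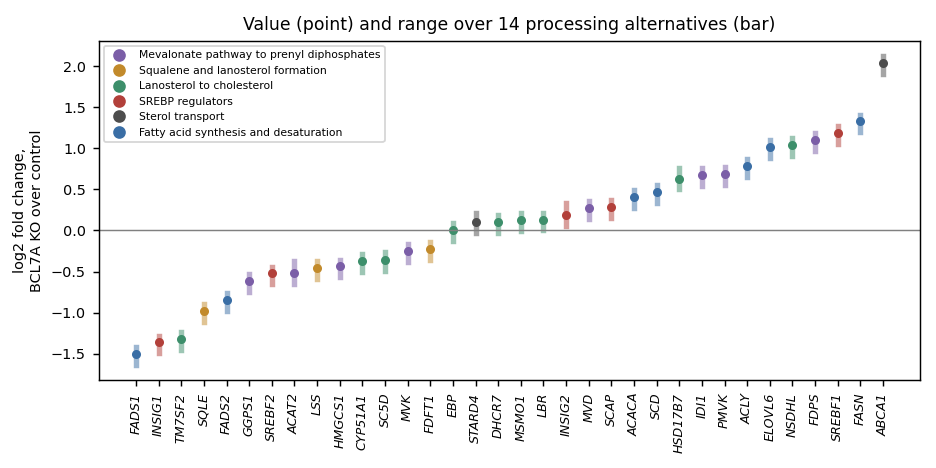
Log2 fold change (KO over control) of the 34 genes in order of size. Points are the reported values, bars the range over 14 processing alternatives, and colours the role of the gene. The bars of LBR, MSMO1, EBP, DHCR7 and STARD4 reach to both sides of 0, and those of the genes at either end do not.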

How the data were processed

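Poly(A) RNA of 2 BCL7A KO and 2 control libraries of NCI-H929 cells was sequenced. The authors deposited 1 table of whole-number counts; the submitters' processing notes name Salmon 0.12 and GRCh38. For the annotation used and whether counting kept strand, nothing is stated (not given in the sources used here). The 92 spike-in rows, none above 2 counts in a library, stayed out of totals and tests. Genes were filtered with filterByExpr and scaled with TMM (factors 0.909 and 0.906 for KO, 1.10 for each control library). KO and control were compared by the quasi-likelihood test of edgeR 4.0.16 with robust shrinkage. Benjamini-Hochberg adjustment ran over all 17885 tested genes (threshold 0.05). An SE is the absolute log2 fold change over the square root of the F statistic.

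Positions and transcript lengths came from GENCODE 29 (GRCh38), promoters from RefSeq (GRCh38.p14). The members and every list were chosen with earlier results of these data known. All 34 members could be named; from each other lipid list the rule took up to 3 genes per direction by smallest p, if called and at 1 CPM or more on average. Some genes that this rule or the marker lists would name are not reported here. Alternatives were RLE or upper-quartile scaling, no filter, a stricter filter (mean count 10, and 1 CPM in 2 libraries), DESeq2 1.42.0, voom (limma 3.58.1), a replicate block, no robust shrinkage, a threshold of 0.01, thinned KO libraries, each library left out, and other neighbour sets. The edgeR script was tested on simulated data.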

Additional observations from a re-analysis of the deposited data

How the results depend on the processing

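Upper-quartile factors had the widest effect on the members: 3 rather than 6 were at least 2-fold higher, their median log2 fold change was -0.018 rather than 0.12, and the values of LBR (-0.00021), MSMO1 (-0.0079), EBP (-0.13), DHCR7 (-0.028) and STARD4 (-0.033) turned negative. Without a filter the members' median was 0.20. The median difference between a member and its neighbours (-0.02) was 0.18 without a filter, -0.055 with the stricter filter, -0.18 against neighbours with at least 10 CPM, and from -0.026 to 0.014 with one library left out. EBP was also negative with the stricter filter (-0.053) and with thinned KO libraries (-0.054), and ranged from -0.011 to 0.044 with one library left out, as STARD4 ranged from -0.010 to 0.21. With the KO libraries thinned to the control depth, MSMO1 (adjusted p = 0.302) and INSIG2 (adjusted p = 0.0807) lost their calls. The replicate numbers went with no shared effect (correlation of deviations -0.0089 over 17885 genes). Whether the samples were handled in pairs is not in the labels, and this correlation cannot show it. With the replicate block 13287 rather than 13629 genes passed, 16 members were higher and 13 lower, and MVK (adjusted p = 0.0568), MSMO1 (adjusted p = 0.0586) and FNTB (adjusted p = 0.0683) lost their calls. The causes of these changes were not tested. The lowest count of a member in a library was 103.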
